A study of Mus musculus with 16 samples.

Results

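The cyclin D, E and A genes and the genes of the cyclin-dependent kinases (CDKs) that these cyclins activate before and during DNA synthesis were examined for 3 histone marks in young and aged hematopoietic stem cells (HSCs). The 10 members, Ccnd1, Ccnd2, Ccnd3, Ccne1, Ccne2, Ccna1, Ccna2, Cdk2, Cdk4 and Cdk6, were taken by name from the 21851 protein-coding genes of GENCODE M21 (mm10), by a rule that uses no measured value. All 10 were found in the annotation. The HSCs were sorted as c-kit+, Sca-1+ and CD150+ cells that were Lin-, IL-7-, CD34-, CD48- and Flt3-, from bone marrow of C57BL/6 mice, either 10 weeks (young) or 20 months (aged) old, with marrow of several mice pooled before sorting. ChIP-seq was performed for H3K4me3, H3K27me3 and H2AK119ub1, from 16 libraries, 2 in each of 8 groups: every mark at either age, and the input DNA of either age. The peaks analysed here came as 1 pooled list for each mark and age, 6 lists in all, so no spread between replicates could be measured. Young and aged HSCs are therefore compared list against list, and no difference of age was tested.

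D cyclins bind CDK4 and CDK6, and these kinases begin to phosphorylate the retinoblastoma protein as a cell leaves quiescence. E cyclins and then A cyclins bind CDK2 and carry the cell into and through DNA synthesis, and cyclin A also acts in early mitosis. Most HSCs are quiescent. H3K4me3 is found at active promoters, whereas H3K27me3 and H2AK119ub1 are the products of Polycomb repressive complexes 2 and 1. A peak list holds only regions that passed the caller's threshold, so a gene without a listed peak is not shown to lack the mark.

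The members carried H3K4me3 at more promoters in the young list than in the aged list. Promoters were windows reaching 1 kb up- and downstream of every start site. H3K4me3 peaks lay at the promoters of 6 of 10 members in young HSCs (Ccnd1, Ccnd2, Ccnd3, Ccne2, Ccna2 and Cdk2), where 33.8% of all protein-coding genes had one. They lay at 3 of 10 in aged HSCs (Ccnd1, Ccna2 and Cdk2), where 23.3% of all genes had one. Thus 3 members had a promoter peak at both ages (17.5% of all genes), 3 in young only (16.3%), none in aged only (5.78%) and 4 at neither age (60.4%), the last being Ccne1, Ccna1, Cdk4 and Cdk6. H3K27me3 was listed at the promoter of a single member, Ccna1, at both ages, beside 16% of all genes in young HSCs, 8.24% in aged HSCs and 7.83% in both. H2AK119ub1 was listed at no member promoter in young HSCs (1.91% of all genes) and at those of Ccnd3 and Ccna2 in aged HSCs (14%, or 12.5% in aged only).

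**Figure D1:**
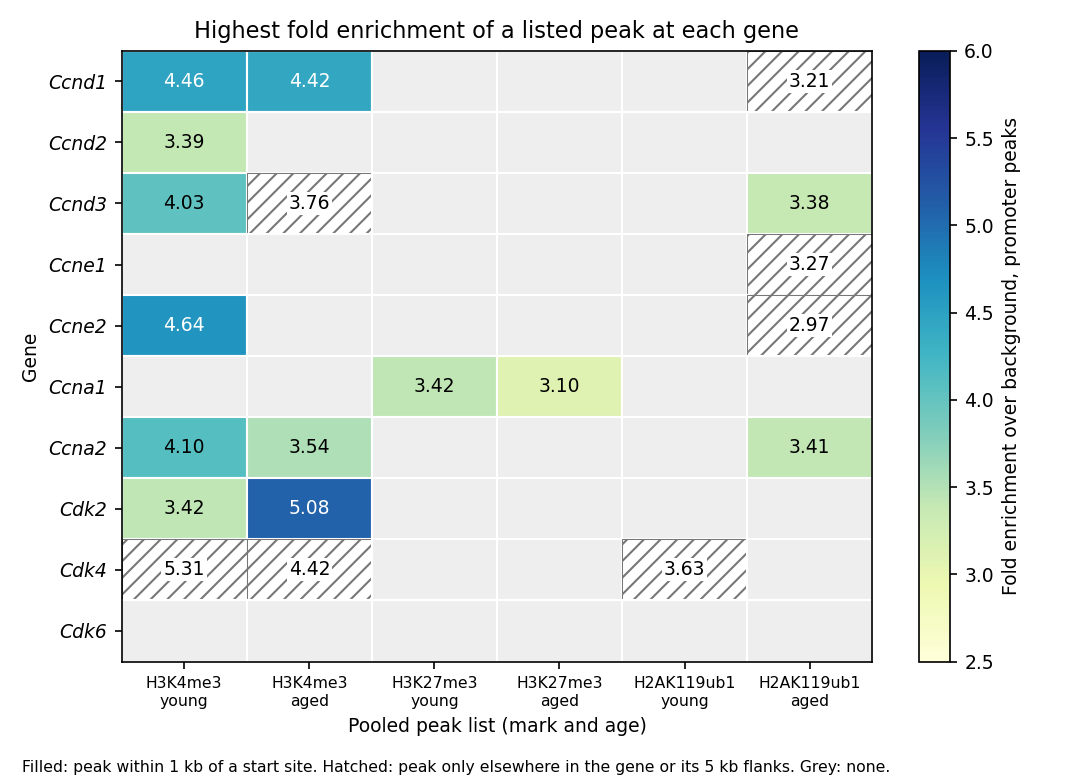
Highest fold enrichment over background (linear ratio, numbers and color) of a listed peak for each gene (rows) in each pooled list (columns). Filled cells hold a peak within 1 kb of a start site, hatched cells a peak only elsewhere in the gene or its 5 kb flanks, and grey cells no peak. H3K4me3 promoter peaks fill 6 cells in young and 3 in aged HSCs, Ccna1 alone is filled for H3K27me3, and the row of Cdk6 is empty.

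The lengths of the lists moved with these counts. The H3K4me3 list held 11371 peaks in young and 6723 in aged HSCs, the H3K27me3 list 63142 and 20419, and the H2AK119ub1 list 2593 and 17768. Their part in the members' differences was not tested beyond 1 check. When the longer list of each mark was shortened to the length of the other by q-value, 4 members kept an H3K4me3 promoter peak in young HSCs (Ccnd1, Ccnd3, Ccne2 and Ccna2), and Cdk2 then had one in the aged list only. No member kept an aged H2AK119ub1 peak, at the promoter or elsewhere in its region. For H3K4me3, the reads behind a peak could be worked out from its deposited fold and p-value. The lowest background under a peak was 3.70 reads (young) and 3.52 reads (aged), and the weakest listed peak had 13 reads at its summit at both ages. The peaks in the members' regions had between 15 and 31 reads in young and between 15 and 24 reads in aged HSCs. The medians of whole lists were 20 and 19 reads. The highest values, 31 and 24 reads, were of peaks at the neighbouring genes Tspan31 and Rab5b. Promoter peaks of the members reached at most 22 reads, at Ccne2 in young and Cdk2 in aged HSCs. For such numbers the exact Poisson 95% interval is wide, from 8.40 to 24.7 for 15 reads and from 12.2 to 30.9 for 20 reads, and it covers counting error only. As a check of cell identity, H3K4me3 promoter peaks were listed at both ages for the HSC markers Procr, Mecom, Hlf and Fgd5, and in aged HSCs also for Kit. Of 4 B cell markers, Ebf1 had one at both ages, and of 4 T cell and 4 myeloid markers none had one at either age.

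Promoter sequences are shown here for 5 members whose marks differ. They come from the RefSeq promoter table (GRCm38.p6, the mm10 assembly), which held 7 promoters of 6 members: Ccna1, Ccnd3 (an upstream and a downstream one), Ccne1, Cdk2, Cdk4 and Cdk6. Only bases upstream of the start site that lie in no annotated exon are printed, 5′ to 3′ on the gene's strand, with matches to the searched motifs in capitals. The motifs were searched on both strands: the E2F motif as TTTCGCGC or TTTGGCGC, the cyclic AMP response element as TGACGTCA, the STAT motif as TTCNNNGAA, the E-box as CACGTG, the GC box as GGGCGG, the CCAAT box as CCAAT, the cell cycle homology region (CHR) as TTTGAA and the TATA box as TATAAA. On the opposite strand a GC box reads CCGCCC and a CCAAT box ATTGG. Neighbouring GC boxes may share bases. The Cdk2 promoter is shown because its H3K4me3 peaks, listed at both ages, begin just downstream. The pair of Ccnd3 promoters is shown because the upstream one had the young H3K4me3 peak and the downstream one lay near the aged H2AK119ub1 regions. The Ccna1 promoter lay between the H3K27me3 regions, and those of Ccne1 and Cdk4 had no listed peak within 1 kb of a start site.
Cdk2 (chr10:128705052-128705179, minus strand): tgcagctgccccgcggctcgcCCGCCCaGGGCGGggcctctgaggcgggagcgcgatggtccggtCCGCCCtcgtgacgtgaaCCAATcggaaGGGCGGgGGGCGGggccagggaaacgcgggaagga
Ccnd3 upstream (chr17:47504801-47505050, plus strand): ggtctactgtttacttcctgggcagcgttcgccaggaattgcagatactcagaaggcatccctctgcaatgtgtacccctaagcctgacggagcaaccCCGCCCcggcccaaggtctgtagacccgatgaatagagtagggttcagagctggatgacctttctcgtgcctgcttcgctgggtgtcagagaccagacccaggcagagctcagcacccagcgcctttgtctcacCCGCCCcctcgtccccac
Ccnd3 downstream (chr17:47593217-47593435, plus strand): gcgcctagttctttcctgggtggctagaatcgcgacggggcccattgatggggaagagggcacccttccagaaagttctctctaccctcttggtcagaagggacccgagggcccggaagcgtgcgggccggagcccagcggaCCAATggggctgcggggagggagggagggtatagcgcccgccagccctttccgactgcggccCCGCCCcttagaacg
Ccna1 (chr3:55055056-55055241, minus strand): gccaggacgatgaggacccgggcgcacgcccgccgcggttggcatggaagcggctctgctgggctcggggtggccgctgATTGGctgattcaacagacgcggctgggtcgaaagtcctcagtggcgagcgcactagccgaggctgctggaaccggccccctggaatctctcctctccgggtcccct
Ccne1 (chr7:38107535-38107740, minus strand): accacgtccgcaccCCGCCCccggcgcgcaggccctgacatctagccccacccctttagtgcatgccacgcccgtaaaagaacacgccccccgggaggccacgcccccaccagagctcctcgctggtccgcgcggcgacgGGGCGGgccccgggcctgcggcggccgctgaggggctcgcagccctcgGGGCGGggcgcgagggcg
Cdk4 (chr10:127063285-127063533, plus strand): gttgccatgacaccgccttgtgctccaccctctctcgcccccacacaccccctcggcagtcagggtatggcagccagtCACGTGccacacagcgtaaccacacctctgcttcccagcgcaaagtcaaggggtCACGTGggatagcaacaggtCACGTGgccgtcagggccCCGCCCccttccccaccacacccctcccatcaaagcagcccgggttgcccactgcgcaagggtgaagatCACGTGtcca

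Counted over the whole window, from 250 bases before to 50 bases after the start, 6 of the 7 member promoters held a GC box, as did 35.7% of the 32851 promoters in the table. The Cdk2 window held the most, with 6 matches, of which 5 are printed. A CCAAT box was found in 3 of 7 (Cdk2, Ccna1 and the downstream Ccnd3 promoter), beside 37.4% of all. The E-box was found in the Cdk4 and Cdk6 promoters, beside 7.15% of all, and the Cdk4 promoter held 4 of them. A TATA box was found in the Cdk6 promoter alone, beside 13.6% of all. The letters of the E2F motif (0.813% of all), the cyclic AMP response element (1.79%), the STAT motif (8.3%) and the CHR (17.9%) were in none of the 7. These are matches of letters in a window, not measured binding.

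Ccnd1, which encodes cyclin D1, had H3K4me3 at the same place at both ages. The gene lies at chr7:144929931-144939925 on the minus strand. The young list held a 377-bp peak at chr7:144939375-144939751, whose near edge was 118 bp downstream of the start site, over the 5′ part of the gene with UTR and coding sequence. Its fold was 4.46, with 20 reads at the summit over a background of 3.70. The aged list held a 376-bp peak at chr7:144939397-144939772 with a fold of 4.42 and 19 reads over 3.52, and the pair shared 355 bp. The reads and folds of these peaks differed by less than the counting error. The young list held 2 further Ccnd1 peaks of 200 bp each, in an intron 630 bp downstream of the start (fold 3.83, 17 reads) and in coding sequence 1925 bp downstream (fold 3.61, 16 reads). An aged H2AK119ub1 region of 200 bp lay upstream, 2374 bp from the start, with a fold of 3.21.

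Ccnd2, which encodes cyclin D2, had H3K4me3 peaks in the young list only. The gene lies at chr6:127125162-127152193 on the minus strand, and the antisense gene 9330179D12Rik overlaps its 5′ part. The only promoter peak, at chr6:127150032-127150280, lay in an intron 727 bp downstream of a start site, with a fold of 3.39 and 15 reads over 3.72, and only 14.9% of young peaks had a lower fold. A wider peak of 460 bp at chr6:127149477-127149936 lay 1071 bp downstream, just outside the promoter, with a fold of 4.03 and 19 reads over 3.96, and covered an exon of 9330179D12Rik. The other two young peaks lay upstream of Ccnd2, at 2011 bp (fold 3.83) and 4404 bp (fold 4.04). No aged H3K4me3 peak lay in the gene or its flanks, and the nearest one in the aged list was 295540 bp from a start site. Neither Polycomb mark was listed in the Ccnd2 region at either age.

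Ccnd3, which encodes cyclin D3, spans chr17:47505051-47599691 on the plus strand and has 6 annotated start sites, 4 at its 5′ end and 2 far downstream. The young list held a 200-bp peak at chr17:47505229-47505428, in UTR sequence 80 bp downstream of a start site, with a fold of 4.03 and 19 reads over 3.96. The aged list held a 200-bp peak at chr17:47506202-47506401, in an intron 1053 bp downstream of a start site, so just outside the promoter, with a fold of 3.76 and 16 reads over 3.52. These peaks did not overlap and lay 773 bp apart. A further young peak of 454 bp lay 2456 bp into the gene (fold 4.04). With start sites of the comprehensive annotation, chosen after the data were seen, the aged peak fell inside the Ccnd3 promoter and the aged count rose from 3 to 4 members. At the downstream start sites, the aged H2AK119ub1 list held a region of 370 bp at chr17:47592698-47593067 (fold 3.01), 403 bp upstream of a start site. A second, of 200 bp at chr17:47594973-47595172 (fold 3.38), lay 896 bp upstream of the last one. Thus at Ccnd3 the aged H2AK119ub1 regions and the H3K4me3 peaks lay at different start sites of the same gene.

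Cdk4 and Cdk6 encode the kinase partners of the D cyclins, and neither had a listed peak of any mark at its promoter. Cdk4 lies at chr10:127063534-127067920 on the plus strand, in a dense group of genes. The H3K4me3 peaks in its region lay at least 6206 bp from a Cdk4 start site, at the shared 5′ end of Tspan31 and the noncoding A730063M14Rik. The young peaks there, at chr10:127069809-127070176 and chr10:127070435-127070784, had folds of 5.31 and 4.61 and 24 and 31 reads. The aged peaks, at chr10:127069906-127070327 and chr10:127070557-127070756, both had a fold of 4.42 and 19 reads. Each young peak overlapped an aged one, by 271 and 200 bp. The one young H2AK119ub1 region among all members, of 231 bp with a fold of 3.63, lay 2598 bp upstream of Cdk4 and 522 bp from the start site of March9. Peaks of the Cdk4 region thus lay nearer to other genes than to Cdk4 itself.

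Cdk6 was the only member with no peak of any list in its gene or flanks, although it spans chr5:3341485-3531008 and its region of 199524 bp was the longest of all. Of all genes, 31.6% had no peak of any list in their region. The H3K4me3 peaks nearest to a Cdk6 start site lay 199944 bp away in the young list and 199946 bp away in the aged list, within Fam133b. The nearest H3K27me3 regions were 500926 and 501385 bp away, and the nearest aged H2AK119ub1 region 324857 bp.

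**Figure D2:**
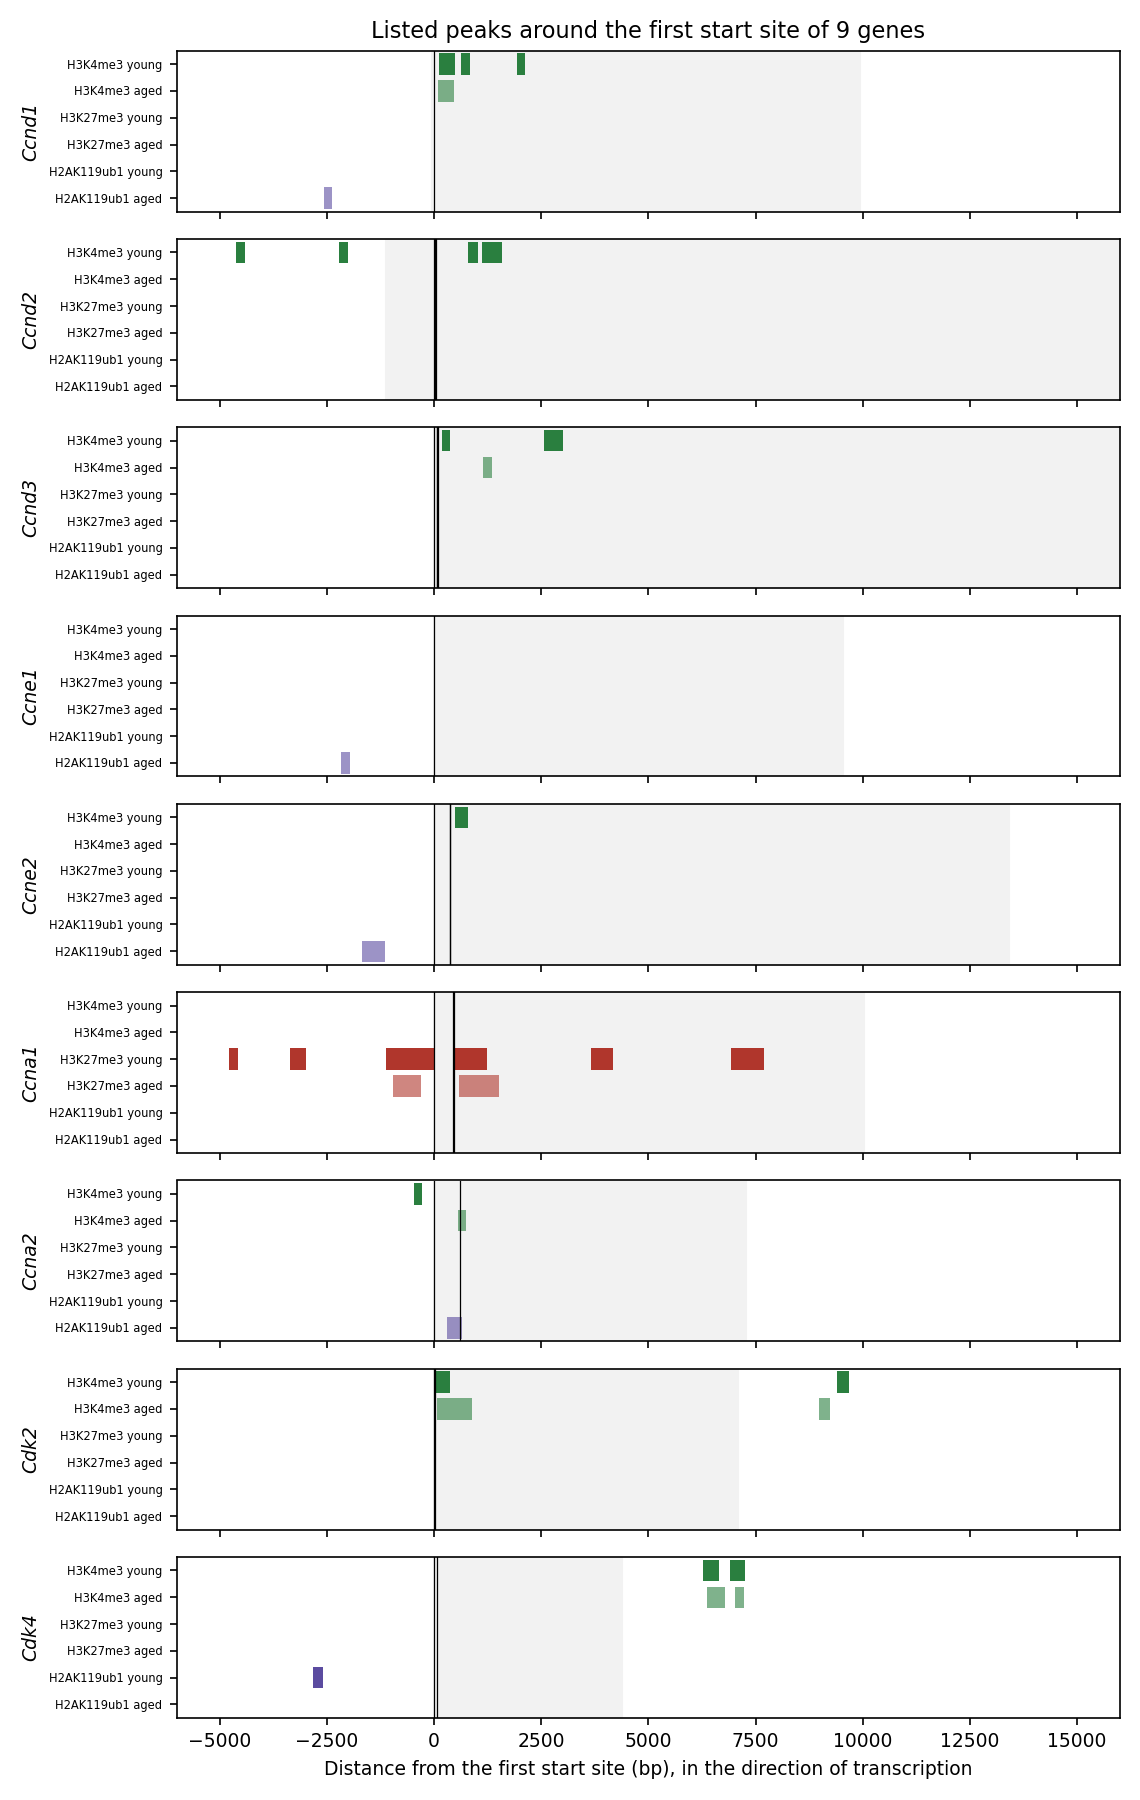
Peaks of the 6 lists (rows of each panel) at 9 members by distance in bp from the first start site in the direction of transcription. Dark bars are young and light bars aged peaks, colored by mark, black lines are start sites, and grey shading is the annotated gene. Bars overlap between the ages at Ccnd1, Ccna1 and Cdk2, and downstream of Cdk4, whereas the H3K4me3 bars of Ccnd3 and Ccna2 lie side by side. The downstream start sites of Ccnd3 lie beyond the right edge, and Cdk6 has no peak.

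The E cyclins, which activate CDK2 at the entry into DNA synthesis, differed from each other. Ccne1, at chr7:38097984-38107534 on the minus strand, had no H3K4me3 peak at either age, and the nearest were 21677 bp (young) and 88393 bp (aged) from its start site. Its one listed region was aged H2AK119ub1, 212 bp wide and 1970 bp upstream, with a fold of 3.27. Ccne2, at chr4:11191351-11204779 on the plus strand, had the young promoter peak with the highest fold among the members. This 313-bp peak at chr4:11191836-11192148 lay in an intron 106 bp downstream of a start site, with a fold of 4.64 and 22 reads over 3.96, and 74.5% of young peaks had a lower fold. The nearest aged H3K4me3 peak was 43974 bp away. An aged H2AK119ub1 region of 545 bp lay 1139 bp upstream of Ccne2, with a fold of 2.97. Its promoter would count as marked if it were widened to 2 kb, as would that of Ccne1, which raised the aged H2AK119ub1 count from 2 to 4 members.

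Ccna1 encodes cyclin A1, which is best known from male germ cells, and was the only member with H3K27me3. The gene lies at chr3:55045469-55055501 on the minus strand, with the antisense gene 4931419H13Rik beside it. The young list held 6 regions over the gene and its flanks, 3732 bp in all, and the aged list 2, 1594 bp in all. At the promoter, the young regions were chr3:55054275-55055021 (747 bp, fold 3.42) over UTR and coding sequence and chr3:55055505-55056635 (1131 bp, fold 3.24) upstream. The aged regions were chr3:55053992-55054930 (939 bp, fold 3.00) and chr3:55055807-55056461 (655 bp, fold 3.10). They shared 656 and 655 bp with the young ones, so the aged upstream region lay wholly within the young one. The other 4 young regions, with folds from 2.80 to 2.94, had no counterpart in the aged list. By q-value these 4 ranked from 49080 to 56195 of the 63142 young regions, and the promoter regions 13003 and 13297, so a young list of the aged list's length, 20419, would hold 2 Ccna1 regions, as the aged list did. The −log10 q-values of the promoter regions were 2.62 and 2.63 in young and 1.43 and 1.45 in aged HSCs, so none passed a stricter limit of 4. Neither H3K4me3 nor H2AK119ub1 was listed in the Ccna1 region, and the nearest H3K4me3 peaks lay 56653 and 57106 bp away at Spg20. The printed Ccna1 sequence falls in the gap between the 2 young regions, and its window overlapped one of them by 16 bp.

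Ccna2 encodes cyclin A2, the A cyclin of dividing somatic cells, and carried H3K4me3 at both ages at different positions. The gene lies at chr3:36564865-36572150 on the minus strand. The young peak, at chr3:36572431-36572630, was 200 bp wide, 281 bp upstream of the first start site, with a fold of 4.10 and 20 reads over 4.12. The aged peak, at chr3:36571400-36571599, was 200 bp wide and covered the second start site, with a fold of 3.54 and 15 reads over 3.52. They lay 831 bp apart. Among the 3825 genes with H3K4me3 promoter peaks at both ages, 80.4% had young and aged peaks that overlapped, as did Ccnd1 and Cdk2. An aged H2AK119ub1 region at chr3:36571491-36571848 (358 bp, fold 3.41) overlapped the aged H3K4me3 peak by 109 bp. Ccna2 was the only member with H3K4me3 and a Polycomb mark at its promoter at the same age, beside 3.33% of all genes in aged HSCs. No member had this in young HSCs (3.06%). With promoters of 2 kb, Ccnd3 also had both marks in aged HSCs, though at different start sites. With lists of equal length, no member kept an aged H2AK119ub1 promoter peak.

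Cdk2, which encodes the partner of the E and A cyclins, had the widest H3K4me3 peak among the members, in the aged list. The gene lies at chr10:128697939-128705031 on the minus strand, with Rab5b downstream and Pmel upstream. The young peak, at chr10:128704654-128704979, was 326 bp wide and the aged peak, at chr10:128704151-128704961, was 811 bp wide. They shared 308 bp over UTR and coding sequence, and both also lay in an annotated Pmel intron. The fold was 3.42 in young and 5.08 in aged HSCs. The reads at the summit were 20 (95% interval 12.2 to 30.9) and 22 (13.8 to 33.3), and the background was 5.15 and 3.52 reads. The difference in fold thus came with a difference in background, while the reads lay within the counting error of each other. The aged peak was wider than 99.7% of its list and its fold was above 87.2% of it. A second pair of H3K4me3 peaks in the Cdk2 region lay at the start of Rab5b, 624 bp from it in young (fold 3.83) and 220 bp in aged HSCs (fold 3.57).

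**Figure D3:**
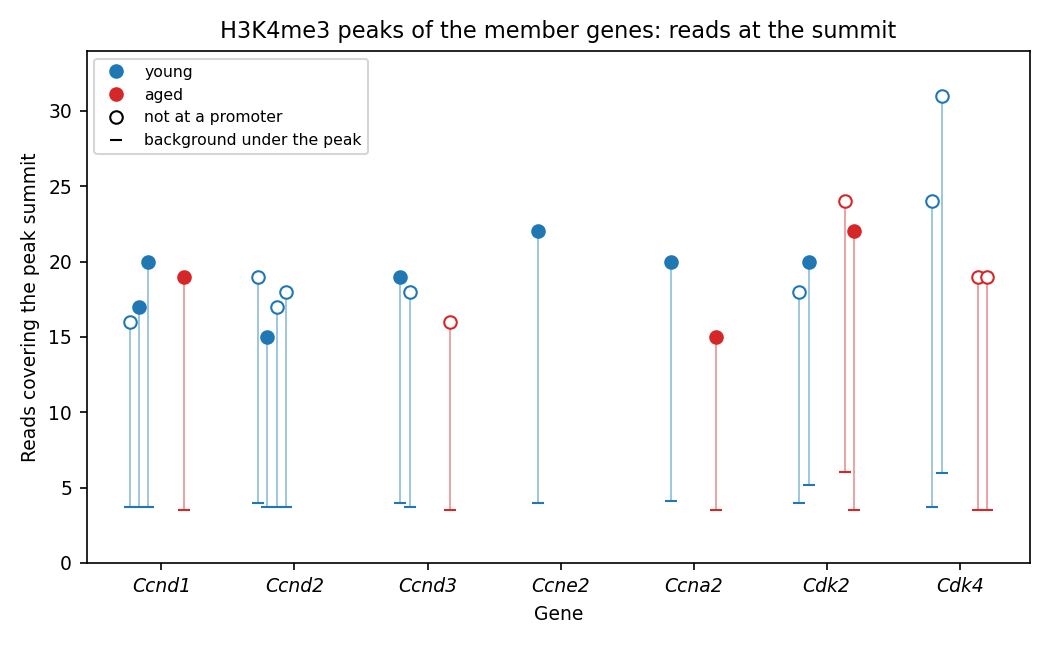
Reads covering the summit of each H3K4me3 peak in the members' regions (circles) above the background under the same peak (dashes). Young HSCs are blue and aged HSCs red, and reads were recovered from the deposited fold and p-value. Filled circles are promoter peaks. The circles of Cdk4 are peaks at Tspan31, and the open circles of Cdk2 are peaks at Rab5b. Peaks of both ages lie between 15 and 31 reads, and the Cdk2 promoter peaks have 20 (young) and 22 (aged) reads over backgrounds of 5.15 and 3.52 reads.

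Over the gene bodies with 5 kb on either side, H3K4me3 peaks were found at 7 of 10 members in young HSCs (40.6% of all genes) and 5 of 10 in aged HSCs (29%). H3K27me3 was found at 1 of 10 at both ages (27.8% in young and 16.5% in aged). H2AK119ub1 was found at 1 of 10 in young (5.99%) and 5 of 10 in aged HSCs (29%), the latter being Ccnd1, Ccnd3, Ccne1, Ccne2 and Ccna2. In all, the regions held 15 young and 7 aged H3K4me3 peaks, 6 young and 2 aged H3K27me3 regions, and 1 young and 6 aged H2AK119ub1 regions. The median fold of the H3K4me3 peaks in these regions was 4.03 in young and 4.42 in aged HSCs, and that of the whole lists 4.04 and 4.20. These counts and medians include H3K4me3 peaks at neighbouring genes. Those at Tspan31, in the Cdk4 region, had folds of 5.31 and 4.61 in young and 4.42 and 4.42 in aged HSCs. Those at Rab5b, in the Cdk2 region, had 3.83 and 3.57. Medians without them were not worked out. For aged H2AK119ub1 the median fold was 3.24, beside 3.22 for the whole list. Of the 5 members with aged H2AK119ub1, Ccnd3 and Ccna2 had it inside the gene body, and Ccnd1, Ccne1 and Ccne2 in the upstream flank only.

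The promoters of all members but Ccnd3 held more CpG than the median protein-coding gene. In the window around the first start site, the ratio of observed to expected CpG was from 0.328 (Ccnd3) to 0.872 (Ccne2), beside a median of 0.484 over all genes. The 4 members without an H3K4me3 promoter peak had ratios of 0.747 (Ccne1), 0.640 (Ccna1), 0.559 (Cdk4) and 0.780 (Cdk6), above the median of 0.272 for all genes without one at either age. Ccnd3, with the lowest ratio, had a peak in the young list. A ratio at or above that of Ccnd3 was found for 13821 genes, 63.3% of all. Of these, 50.3% had an H3K4me3 promoter peak in young and 34.7% in aged HSCs, beside the members' 6 and 3 of 10. That limit was set by Ccnd3 alone. The next lowest member, Ccnd2, had a ratio of 0.552, so the comparison takes in genes with less CpG than all other members. Whether CpG content bears on the members' counts was not tested.

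The members were set beside 39 other genes of the cell cycle. H3K4me3 promoter peaks were listed for 24 of them (61.5%, beside 33.8% of all genes) in young and 16 (41%, beside 23.3%) in aged HSCs. Of the 39, 13 had a peak at both ages (17.5% of all genes) and 11 in young only (16.3%). Another 3 had a peak in aged only (5.78%), namely E2f4, Pkmyt1 and Ambra1. Among the retinoblastoma family and E2F genes, on which cyclin and CDK complexes act, 8 of 13 had one in young and 4 of 13 in aged HSCs (Rbl2, E2f4, E2f7 and Tfdp2). Among mitotic cyclins and Cdk1, it was 3 of 4 in young (Ccnb1, Ccnb2 and Cdk1) and 1 of 4 in aged HSCs (Ccnb2). Of the 8 genes of CDK activation and inhibitory kinases, 5 had one in each list, namely Cdk7, Ccnh, Mnat1 and Wee1 in both, Cdc25c in young only and Pkmyt1 in aged only. Of the 7 genes of cyclin turnover, 4 had one in each list, namely Skp2, Cks1b and Cks2 in both, Fzr1 in young only and Ambra1 in aged only. The CDK inhibitors, which bind the members' protein products, had 4 of 7 in young (Cdkn1a, Cdkn1b, Cdkn2c and Cdkn2d) and 2 of 7 in aged HSCs (Cdkn1b and Cdkn2c).

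**Figure D4:**
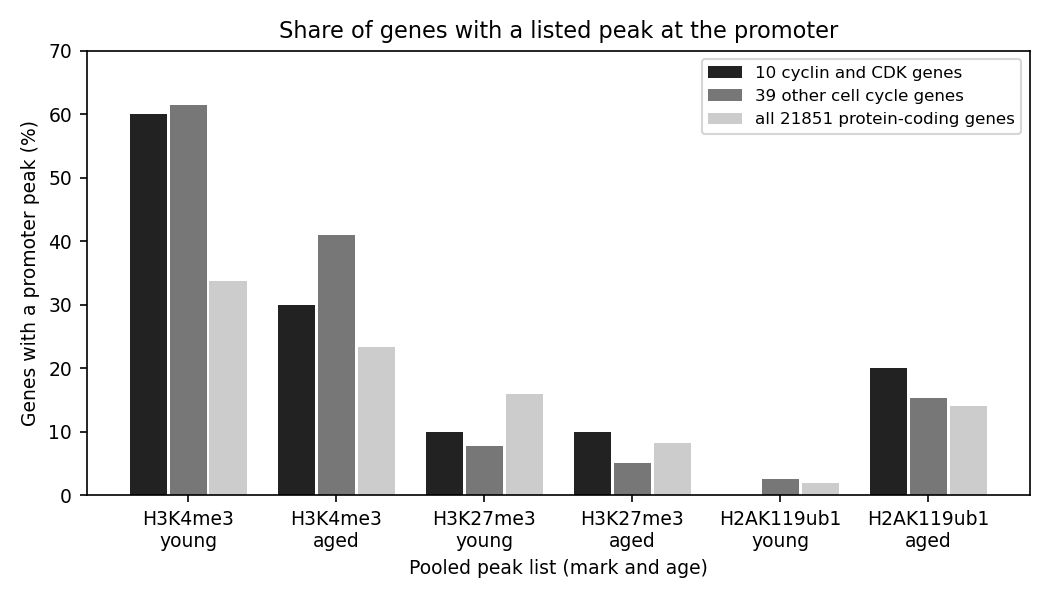
Share of genes (%) with a listed peak at the promoter in each pooled list, for the 10 cyclin and CDK genes (black), 39 other cell cycle genes (dark grey) and all 21851 protein-coding genes (light grey). For H3K4me3 in young HSCs the members stand at 60% and the other cell cycle genes at 61.5%, beside 33.8% of all genes. In aged HSCs they stand at 30% and 41%, beside 23.3%, and the members' 3 of 10 is close to that share. For H3K27me3 1 of 10 members makes 10%, and no bar stands for the members in young H2AK119ub1.

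The other cell cycle genes with H3K27me3 at the promoter were 3 CDK inhibitors in young HSCs and 2 in aged HSCs. These were 7.69% and 5.13% of the 39, below the 16% and 8.24% of all genes. Cdkn2a, which encodes p16 and p19Arf, had 3640 promoter bases in young (fold 4.35) and 1021 in aged HSCs (fold 3.89). Cdkn2b, which encodes p15, had 1625 bases in young (fold 4.35) and 253 in aged HSCs (fold 3.36). Cdkn2a and Cdkn2b are neighbours on chromosome 4, and their highest young fold was the same, 4.34554. Whether 1 young region covers both promoters was not examined, so these genes may not be separate observations. Cdkn2c, which encodes p18, had 868 bases in young only (fold 3.68). The young H3K27me3 list was the longer one, with 63142 regions against 20419. The part of list length in these differences in bases was not tested. H2AK119ub1 was listed in young HSCs at 1 of 39 promoters (2.56%, beside 1.91% of all genes), that of Cdkn2a (fold 3.01). In aged HSCs it was listed at 6 of 39 (15.4%), near the 14% of all genes. These were Cdkn2a (fold 3.56), Cdkn2b (3.30), Cdkn2c (3.71, by 27 bases), Cdkn1b (3.14), E2f8 (3.65) and Fbxw7 (3.20). Cdkn1b, which encodes p27, and Cdkn2c had H3K4me3 beside H2AK119ub1 at their promoters in aged HSCs, as Ccna2 did. In young HSCs, Cdkn2c had H3K4me3 beside H3K27me3. Of all genes, 3.33% had H3K4me3 and a Polycomb mark at the promoter in aged and 3.06% in young HSCs.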

How the data were processed

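ChIP-seq peaks of HSCs were taken from 6 lists, 1 per mark and age. The authors aligned single reads to mm10 with Bowtie2, and the submitters' processing notes name MACS2 2.2.6. Names of narrow (H3K4me3) peaks hold a pair of library numbers and those of broad regions 1, which leaves unknown how many replicates the broad lists pool. Fold enrichment was deposited as a linear ratio to the local background. The authors also deposited the −log10 of each p-value and q-value, which for a broad region are averages. The deposited score, a whole number made from the q-value, and the summit offset gave no value reported here. Duplicated reads, multiple alignments and the caller's threshold affect which peaks are listed, and sequencing depth is not part of the lists.

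Only chromosomes 1 to 19, X and Y were kept, which left out 11 scaffold peaks. Start sites were those of protein-coding transcripts in the basic GENCODE M21 annotation, 41438 in all. A gene was marked when a peak overlapped its promoter or region (gene body with 5 kb on each flank) by at least 1 bp. Distances run from a start site to the nearest edge of a peak. The software was Python 3.11.15, pandas 2.3.3, numpy 2.4.6, scipy 1.17.1 and matplotlib 3.10.9. For narrow peaks, reads at the summit and background were solved from the fold, (reads + 1) / (background + 1), and the Poisson p-value. The reads came out whole, within 0.001, for 100% of peaks. Both the overlap code and this step were first tested on simulated data. Alternatives were a limit of 4 on the −log10 q-value, 50% of the peak inside, promoters of 500 bp and 2 kb, gene bodies alone, and lists of equal length.

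No test was made, since each group is 1 list. The members, lists and alternatives were chosen with earlier results of these data known. All 10 members are named, as are, of the 39 other cell cycle genes, those with a Polycomb mark at the promoter and those behind a count of 5 or fewer. Motifs were searched only in the RefSeq promoter table, so not for Ccnd1, Ccnd2, Ccne2 and Ccna2. CpG content was read from the mm10 sequence for all members. Part of the marker lists used to check cell identity is not reported here.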

Additional observations from a re-analysis of the deposited data

How the results depend on the processing

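Of 96 alternative values for 18 counts, 77 stayed within 1.5 times the count reported and 19 moved. This measure is coarse, since a fall from 6 to 4 members counted as staying. The count of 0 for young H2AK119ub1 at member promoters could not fall under a stricter setting. No paired analysis was possible because every group was given as 1 list with no values per replicate, and for the same reason no replicate could be left out. With peaks limited to a −log10 q-value of 4 or more, the members with a promoter peak fell to 0 for young H3K27me3, 0 for aged H3K27me3 and 0 for aged H2AK119ub1, and those with a peak in the gene region to 3 for aged H3K4me3, 0 for young and 0 for aged H3K27me3, and 0 for young and 0 for aged H2AK119ub1. The other cell cycle genes fell to 0 for aged H3K27me3 and for both lists of H2AK119ub1. Member counts for H3K4me3 at promoters fell to 4 in young and 2 in aged HSCs. With lists of equal length, the aged H2AK119ub1 counts were 0 for member promoters, 0 for member regions and 1 for the other genes (Cdkn2c). A promoter of 2 kb gave 4 members with aged H2AK119ub1. Gene bodies alone gave 0 members with young and 2 with aged H2AK119ub1. For the other cell cycle genes, aged H3K27me3 fell to 1 with 50% of the peak inside and to 1 with a promoter of 500 bp. Start sites of the comprehensive annotation, chosen after the data were seen, moved 0 of 12 counts by that measure. The cause was not tested, beyond that a stricter limit keeps fewer peaks.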
